A study of Homo sapiens with 4 samples.

Results

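Long noncoding RNA (lncRNA) genes were followed through an expression array study of A549 cells, a lung adenocarcinoma cell line, in which the lncRNA EPEL was knocked down. A probe was included when its platform gene symbol started with LINC0 or SNHG, ended in -AS1, -AS2, -DT or -IT1, or was MALAT1, NEAT1, MEG3, H19, GAS5, DANCR, EPB41L4A-AS1, PVT1 or TUG1, and when its detection p was under 0.01 on at least 1 array. The detection p is the share of negative control beads of the same array that were at least as bright as the probe. By symbol 592 probes of 493 genes qualified among the 47228 probes of the BeadChip, and 137 probes of 125 genes (23.1% of the probes) were also detected. Of the 125 genes, 124 had a RefSeq entry under the same symbol and 122 of these were of biotype lncRNA. The exceptions were TUG1, listed as protein coding, and HAS2-AS1, listed as an antisense RNA. LINC00950 had no entry.

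The study compared cells given 50 nM of a non-targeting control siRNA (1 array) with cells given 50 nM of an siRNA for EPEL (3 arrays, each with a different sequence, here siRNA 1, siRNA 2 and siRNA 3). All 4 samples were A549 cells transfected with a lipid reagent (Lipofectamine). The medium was changed after 4 h. The labels place an RT-qPCR check of the knockdown at 48 h and give no time for the RNA of the arrays. Separate cultures are not stated for the samples. The p-values rest only on the spread among the 3 samples given siRNAs for EPEL and on a variance shared by all tested probes. That spread also holds differences between the siRNAs. No probe carried the name EPEL (0 of 47228) and no file used here ties EPEL to another symbol, so the depth of each knockdown was not analysed here. Whether the probe of TENM3-AS1, an antisense gene described with the results, measures EPEL under another name could not be settled, and its values may be those of the siRNA target. The question is raised because this probe was low with all 3 siRNAs. No file used here links the names. Of 6 epithelial markers 6 were detected on all 4 arrays, among them KRT8, KRT18 and EPCAM. Of 6 alveolar type II markers only ABCA3 was detected, and the surfactant genes SFTPA1, SFTPB and SFTPC were not detected on any array. Of 4 endothelial markers 0 were detected, CD14 was the detected leukocyte marker, and COL1A1 and COL3A1 were the detected fibroblast markers.

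lncRNAs are transcripts that are processed much like messenger RNAs but are not known to be translated into a functional protein. The groups here differ in how they arise. The SNHG genes, DANCR and EPB41L4A-AS1 are hosts of small nucleolar RNAs (snoRNAs): the snoRNAs, which guide modification of ribosomal RNA, are cut from the introns, while the spliced exons are exported and, for several hosts, destroyed by nonsense-mediated decay. Many of these hosts begin with a run of pyrimidines, as the messenger RNAs of ribosomal proteins do. Antisense genes (-AS) are transcribed from the strand opposite to a named gene, divergent transcripts (-DT) start near the promoter of a named gene and run the other way, and LINC genes lie between genes. EPEL has been linked to the E2F transcription factors, which drive entry into S phase.

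Promoter windows from RefSeq (GRCh38.p14, 250 bases before to 50 after the first listed start) were matched for 100 of the 125 genes and for 12 of the 15 snoRNA hosts. The stretches from 30 bases before to 30 bases after the start are shown for 8 hosts, because the start is what this class is known to share. They are written 5′ to 3′ on the gene's strand, with the longest run of C and T letters within 20 bases of the start in capitals. The 8 were picked by hand, and SNHG17, DANCR, SNHG11 and SNHG10, with longest runs of 7, 6, 5 and 4 letters, are not shown.
SNHG1: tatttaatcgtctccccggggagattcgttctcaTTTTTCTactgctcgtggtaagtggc
SNHG4: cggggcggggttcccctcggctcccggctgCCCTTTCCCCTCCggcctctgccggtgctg
SNHG5: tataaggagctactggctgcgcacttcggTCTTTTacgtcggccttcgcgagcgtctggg
SNHG7: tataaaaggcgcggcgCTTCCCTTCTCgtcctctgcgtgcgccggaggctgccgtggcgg
SNHG8: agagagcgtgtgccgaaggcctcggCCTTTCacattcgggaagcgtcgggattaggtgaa
SNHG12: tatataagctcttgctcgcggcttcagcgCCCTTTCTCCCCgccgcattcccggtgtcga
SNHG32: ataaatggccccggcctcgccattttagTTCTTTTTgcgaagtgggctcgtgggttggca
EPB41L4A-AS1: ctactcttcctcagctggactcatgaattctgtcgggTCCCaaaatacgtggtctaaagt

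These stretches lie at chr11:62855856-62855915 (SNHG1, minus strand), chr5:139274071-139274130 (SNHG4, plus), chr6:85678704-85678763 (SNHG5, minus), chr9:136728155-136728214 (SNHG7, minus), chr4:118278732-118278791 (SNHG8, plus), chr1:28581844-28581903 (SNHG12, minus), chr6:31834886-31834945 (SNHG32, plus) and chr5:112160496-112160555 (EPB41L4A-AS1, plus). A run of at least 7 C or T letters within 20 bases of the start stood in 6 of the 12 host windows (50%), in 21 of the 88 windows of the other lncRNA genes (23.9%) and in 25.3% of 27305 windows of all genes. In 11 protein-coding snoRNA host genes it stood in 5. The longest run was 13 letters in SNHG4 and 12 in SNHG12, against 4 in EPB41L4A-AS1. The run of 11 letters in SNHG7 began at base -14 and that of 7 letters in SNHG1 at base 5, so neither spans the start. These counts describe letters near annotated starts and are no measure of a factor or of translation.

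Because of the E2F context, the 300-base windows were also searched on both strands for TTTCCCGC, TTTGGCGC, TTTCGCGC and TTTGCCGC, of which TTTCGCGC was the one found in hosts. A match stood in 4 of 100 lncRNA windows (4%) and in 3.33% of all windows. The 4 genes were SNHG1, SNHG17, CNN3-DT and LINC00997. With the siRNAs for EPEL their log2 fold changes against control were -0.36 ± 0.23 (SE), -0.04 ± 0.21, 0.23 ± 0.23 and -0.47 ± 0.23, in that order. These lay on both sides of the control, and the CNN3-DT probe was not detected on the control array. The window of SNHG1 is given because this gene is described in detail for the knockdown as well, with the match in capitals (chr11:62855836-62856135, minus strand).
SNHG1: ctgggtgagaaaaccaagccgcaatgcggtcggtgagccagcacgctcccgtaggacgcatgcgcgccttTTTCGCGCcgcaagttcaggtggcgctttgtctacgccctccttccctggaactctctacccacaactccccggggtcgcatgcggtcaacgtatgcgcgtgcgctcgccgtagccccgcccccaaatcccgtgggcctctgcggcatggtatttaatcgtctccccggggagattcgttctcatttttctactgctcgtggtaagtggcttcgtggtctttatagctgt

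Most lncRNA probes gave no signal above background, and the classes differed in how many did. The snoRNA hosts were detected on all 4 arrays with 19 of their 24 probes, and none of their probes was detected on only some arrays. Of the 301 LINC probes 47 were detected at all and 24 on all 4 arrays, and of the 212 antisense probes 55 and 26. Divergent and intronic transcripts had 12 of 49 probes detected, 7 of them on all 4 arrays. Of the 137 detected probes, 80 (58.4%) were detected on all 4 arrays, against 85.3% of all 18200 tested probes. A further 41 were not detected on the control array, 27 of which were detected on only 1 siEPEL array, and 16 were detected on the control array but missing from at least 1 siEPEL array. Such probes passed the detection filter through part of the arrays, which by itself favours a difference.

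**Figure D1:**
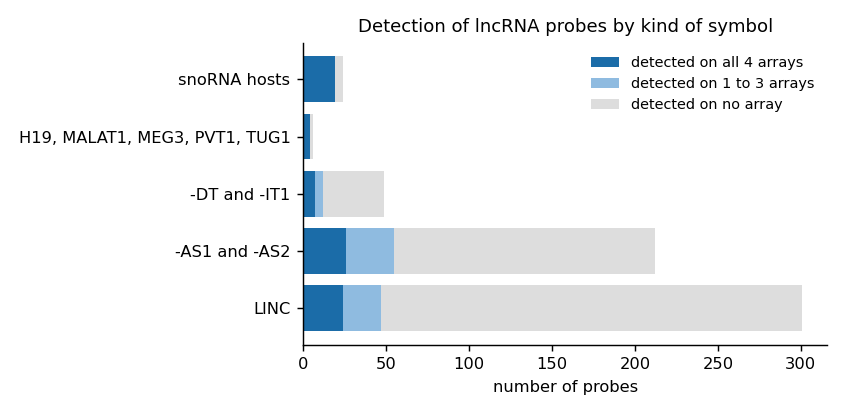
Number of lncRNA probes (x axis) by kind of gene symbol (y axis), split into probes detected on all 4 arrays, on 1 to 3 arrays and on no array, at a detection p under 0.01. The 19 detected probes of snoRNA hosts were detected on every array, whereas 455 of the 592 probes, mostly LINC and antisense, were detected on none.

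Among the genes named one by one, the single MALAT1 probe and the single GAS5 probe were not detected on any array. MALAT1, a nuclear speckle RNA, had raw signals of 55.2 in control cells, then 50.5, 51.1 and 54.1 with siRNAs 1, 2 and 3, and its lowest detection p was 0.487. GAS5, a snoRNA host named for growth arrest, had raw signals of 59.2, 65.5, 69.9 and 66.4 in the same order, with a lowest detection p of 0.0506. These signals lay in the range of the negative control beads, so no level can be given for either gene. A second MEG3 probe reached a detection p of 0.0182 on the siRNA 2 array and was not included either. NEAT1 had no probe under that symbol. At the edge of the rule, 6 included probes, such as those of FGF14-AS2 and LINC02400, had a lowest detection p of 0.00909, and 4 excluded ones, such as those of LINC00459 and ZNF606-AS1, had 0.0104.

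No lncRNA passed the test of siEPEL against control cells. Of the 137 probes, 0 had a limma adjusted p under 0.05, as did 0% of all 18200 tested probes, and the smallest adjusted p of a lncRNA probe was 1.00. Before adjustment 9 lncRNA probes had a p under 0.05 (6.57%, against 2.1% of all tested probes). Of these 9, 7 were not detected on all 4 arrays, and the other 2 were FLVCR1-DT and a dim probe of SNHG7. Among probes detected on all 4 arrays the shares at an unadjusted p under 0.05 were 2.5% of the 80 lncRNA probes and 1.08% of all. The lncRNA probes were dimmer, with a median control log2 level of 5.94 against 7.81 for all tested probes. Among probes detected on all 4 arrays these medians were 7.06 and 8.27. With a shared variance that followed intensity, 4 of the 137 probes had an unadjusted limma p under 0.05. The median log2 fold change of the 137 probes was 0.04 and that of all tested probes 0.00. It was 0.02 over the 80 lncRNA probes detected on all 4 arrays. The median standard error of a lncRNA log2 fold change was 0.23. It rests on the spread among the 3 siEPEL arrays and, with more weight, on a variance shared by all tested probes. The 1 control array adds no spread of its own. In whole-cell RNA, fewer cells with a transcript and less of it per cell cannot be told apart.

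Each siRNA was also set against the control array alone, with no test, since each had 1 array. At least 1.5-fold higher than control were 3 of the 137 probes with siRNA 1 (2.19%, against 2.35% of all tested probes). With siRNA 2 there were 11 (8.03%, against 2.94%) and with siRNA 3 there were 5 (3.65%, against 1.43%). At least 1.5-fold lower were 5 with siRNA 1 (3.65%, against 3.07%), 6 with siRNA 2 (4.38%, against 3.27%) and 5 with siRNA 3 (3.65%, against 1.32%). Among the 80 lncRNA probes detected on all 4 arrays the counts were smaller. They were 0 higher and 1 lower with siRNA 1 (1.55% and 2.4% of all probes detected so). For siRNA 2 they were 5 higher (6.25%, against 2.05%) and 2 lower (2.5%, against 2.73%). For siRNA 3 they were 3 higher (3.75%, against 0.632%) and 3 lower (3.75%, against 0.767%). The shares higher with siRNA 2, and both shares with siRNA 3, thus stayed above those of all probes detected so. With all 3 siRNAs together the counts among the 80 were 0 and 0 (against 0.0516% and 0.0322%). Of the 137 probes, 0 were at least 1.5-fold higher with all 3 siRNAs and 1, TENM3-AS1, was at least 1.5-fold lower (0.148% and 0.115% of all tested probes). Whether this probe is that of the siRNA target could not be settled, so its low level is not read here as a response of another lncRNA. The 3 ratios of a probe share the control array, so a deviation of that array moves them together. With every siRNA on 1 side of the control array lay 31 probes above (22.6%, against 21.6% of all) and 27 below (19.7%, against 19.9% of all), shares near the background.

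**Figure D2:**
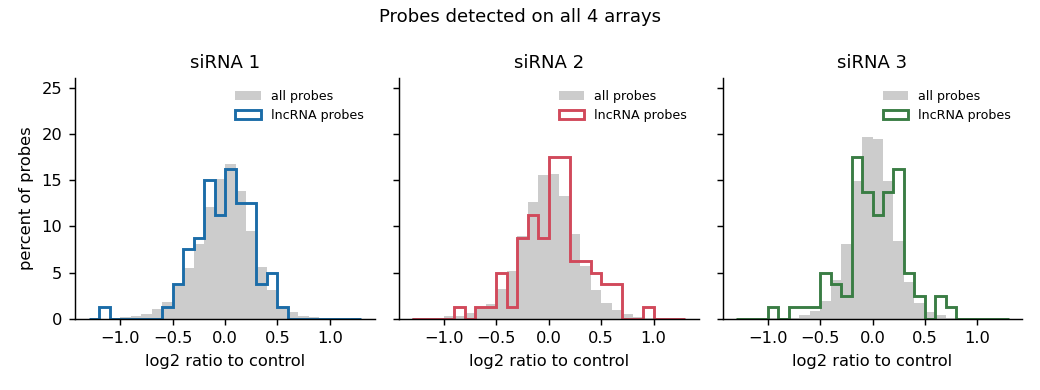
Distribution of log2 ratios to the control array (x axis, bins of 0.1) for siRNAs 1, 2 and 3, as the percent of probes (y axis), for all 15517 probes detected on all 4 arrays (grey) and the 80 lncRNA probes among them (outline). Both distributions centre near 0 with each siRNA, and single lncRNA probes lie in the tails, such as MEG3 at -1.14 with siRNA 1 and SLC12A2-DT at -0.98 with siRNA 3.

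The snoRNA hosts were the best measured class, and they lay on both sides of the control. SNHG1, which holds the most snoRNA genes of the hosts measured, had log2 levels of 10.67 in control cells, then 10.18, 10.18 and 10.56 with siRNAs 1, 2 and 3. The folds were 0.712, 0.711 and 0.929, and the log2 fold change was -0.36 ± 0.23 (SE), lower with siRNAs 1 and 2 and near the control with siRNA 3. Its 4 tested snoRNA probes did not follow one direction: SNORD31 stood at -0.39, -0.50 and -0.05, SNORD22 at -0.53, -0.07 and 0.19, SNORD30 at -0.26, 0.07 and 0.13, and SNORD25 at 0.80, -0.31 and 0.26 (log2 ratios with siRNAs 1, 2 and 3).

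SNHG8, host of SNORA24, had log2 levels of 9.97 in control cells, then 10.16, 10.56 and 10.21 with siRNAs 1, 2 and 3. All 3 siEPEL arrays were above the control, siRNA 2 most, with a log2 fold change of 0.34 ± 0.23 (SE). The probe of SNORA24 itself stood at 0.15, 0.02 and 0.15. EPB41L4A-AS1, host of SNORA13, showed the same order among arrays, at 10.28 on the control array and 10.37, 10.77 and 10.44 with the siRNAs. Its log2 fold change was 0.25 ± 0.23. EPB41L4A, the protein-coding gene it is named for, instead was highest with siRNA 1, at log2 ratios of 0.63, -0.15 and 0.12. SNHG32, which holds SNORD48 and SNORD52, stood at 11.08 on the control array and at 11.36, 11.27 and 11.19, a log2 fold change of 0.20 ± 0.20. The SNORD52 probe was detected on 2 siEPEL arrays and not in control cells, with log2 levels of 5.52 against 5.68, 5.16 and 5.55. SNHG8, EPB41L4A-AS1 and SNHG32 lay above the control with every siRNA, and 0 of them passed the test.

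Several hosts had more than 1 probe, and the probes of a gene did not always give one direction. SNHG5, host of SNORD50A and SNORD50B, lay below the control on every siEPEL array by its probe ILMN_2200659, with log2 levels of 12.92 (control) and 12.59, 12.72 and 12.64, a log2 fold change of -0.27 ± 0.20 (SE). By its probe ILMN_1653794 it stood at 11.91 and at 11.52, 12.23 and 11.74, above the control with siRNA 2 alone. SNHG7, host of SNORA17A and SNORA17B, had 3 probes. ILMN_3233205 stood at 5.80 on the control array, near the dimmest detected signal of 5.62, and at 6.28, 6.37 and 6.53, a log2 fold change of 0.60 ± 0.21. ILMN_3233229 stood at 9.16 and at 8.97, 8.95 and 8.74, a log2 fold change of -0.28 ± 0.21. ILMN_3227023 stood at 10.95 and at 10.84, 11.06 and 10.84, with a log2 fold change of -0.04 ± 0.21. The direction of SNHG7 therefore depended on the probe. SNHG15, host of SNORA9, gave 0.16 ± 0.20 by ILMN_1898124 and -0.09 ± 0.20 by ILMN_3248773. Of 10 lncRNA genes with several detected probes, 7 had probes of opposite sign.

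The remaining hosts had log2 fold changes from -0.23 to 0.15. SNHG4, host of SNORA74A, was below the control array with each siRNA, at 6.85 against 6.75, 6.61 and 6.48, a log2 fold change of -0.23 ± 0.21 (SE). SNHG12 had a log2 fold change of 0.15 ± 0.22, although its snoRNA SNORA61 stood at -0.17, -0.99 and -0.10 and was lowest with siRNA 2. A second snoRNA of SNHG12, SNORD99, was detected on 3 arrays and stood at -0.22, -0.65 and -0.24, not above background with siRNA 2. SNHG10 stood at 0.12 ± 0.23, SNHG6 at 0.01 ± 0.21, SNHG17 at -0.04 ± 0.21, DANCR, an RNA known for keeping progenitor cells undifferentiated, at -0.05 ± 0.20, SNHG11 at -0.06 ± 0.21 and SNHG9 at -0.09 ± 0.22. Over the 19 host probes the median log2 fold change was -0.04, with 6 probes above and 5 below the control with all 3 siRNAs (31.6% and 26.3%, against 21.1% and 19.9% of all probes detected on every array). SNHG3, SNHG20 and SNHG28 had probes that were not detected. By RefSeq placement 14 of the 15 hosts held an annotated snoRNA gene, and SNHG10 held none.

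**Figure D3:**
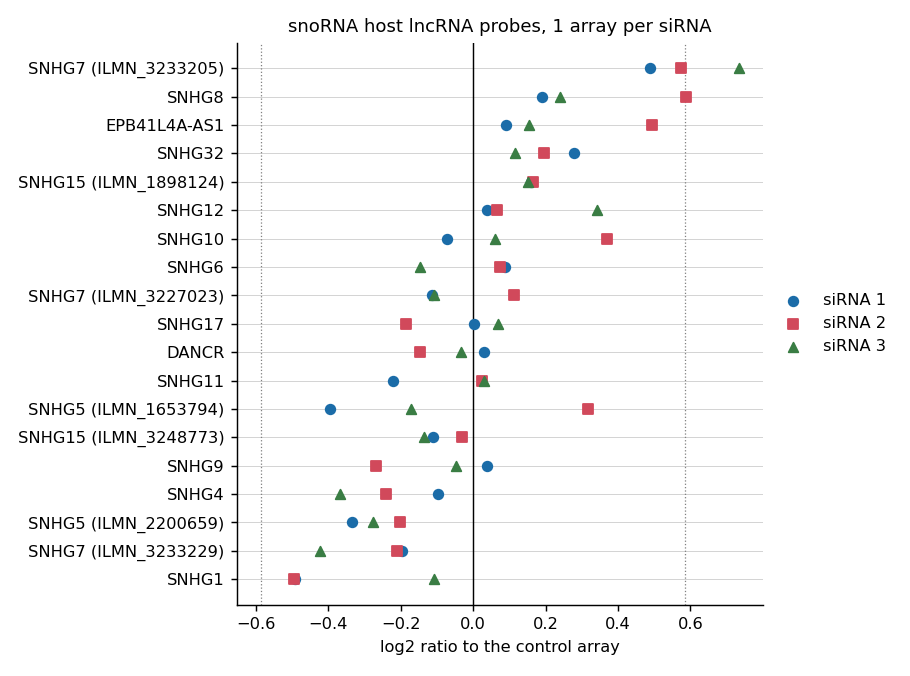
Log2 ratio to the control array (x axis) of the 19 probes of snoRNA host lncRNAs (y axis, ordered by log2 fold change), 1 point for each siRNA. Dotted lines mark 1.5-fold. SNHG1 lay at -0.49 with siRNAs 1 and 2, SNHG8 reached 0.59 with siRNA 2, and the 3 probes of SNHG7 lay apart.

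The other lncRNAs named one by one lay on different sides of the control with different siRNAs. MEG3, an imprinted RNA known as a growth suppressor, had log2 levels of 7.79 in control cells, then 6.65, 7.89 and 7.89 with siRNAs 1, 2 and 3. With siRNA 1 it reached 0.454-fold of control, with each of the others 1.07-fold, so its log2 fold change of -0.31 ± 0.44 (SE) rests on 1 array and is 0.10 without it. H19, the imprinted RNA next to IGF2, stood at 8.24 and at 8.46, 7.69 and 8.38, low with siRNA 2 alone, with a log2 fold change of -0.06 ± 0.31 that is 0.18 without siRNA 2. PVT1, the neighbour of MYC, stood at 6.60 in control cells and at 6.74, 7.01 and 6.15, above the control with siRNAs 1 and 2 and below it with siRNA 3. MYC itself had a log2 fold change of 0.05 ± 0.22. TUG1, a widely expressed nuclear and cytoplasmic RNA, stood at 11.28 and at 11.02, 11.36 and 11.50. Its log2 fold change of 0.01 ± 0.24 was below 0 under median scaling (-0.05).

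Outside these genes, FLVCR1-DT ranked first by its smallest ratio among the probes above the control with all 3 siRNAs and detected on all 4 arrays. Its log2 levels were 6.27 in control cells, then 6.77, 6.79 and 6.71 with siRNAs 1, 2 and 3. The siRNAs gave 1.42-fold, 1.44-fold and 1.36-fold the control level, for a log2 fold change of 0.49 ± 0.20 (SE) with little spread among the siEPEL arrays. FLVCR1, the membrane transporter gene with which it is paired by name, stood at 0.34, -0.15 and -0.03 with the 3 siRNAs, above the control with siRNA 1 alone, for a log2 fold change of 0.05 ± 0.24. Of the 12 divergent and intronic transcripts measured, 2 lay above and 1 below the control with all 3 siRNAs (16.7% and 8.33%, against 21.6% and 19.9% of all tested probes). LARP4B-DT was the one below, at -0.09 ± 0.20. SLC12A2-DT, picked after its values were seen, lay on both sides, at log2 ratios of -0.20, 0.44 and -0.98, while SLC12A2, a chloride cotransporter gene, stood at -0.09, 0.49 and 0.13.

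Antisense transcripts also lay on both sides. PSMG3-AS1 stood at 5.96 in control cells, then at 6.13, 6.92 and 6.23 with siRNAs 1, 2 and 3, so the siRNA 2 array was 1.95-fold the control, and its log2 fold change was 0.47 ± 0.31 (SE). PSMG3, a proteasome assembly chaperone gene, stood at -0.01, 0.18 and -0.16. MAP3K14-AS1 stood at a log2 level of 6.83 in control cells and at 1.32-fold, 1.23-fold and 1.13-fold that with the siRNAs. Its log2 fold change was 0.29 ± 0.21, beside 0.07 ± 0.21 for MAP3K14, a kinase of the noncanonical NF-kappaB pathway. IGFBP-AS1, named as in the platform annotation, stood at 0.15 ± 0.20. Of the 55 antisense probes, 0 were at least 1.5-fold higher with all 3 siRNAs and 1 (1.82%), TENM3-AS1, was at least 1.5-fold lower, against 0.148% and 0.115% of all tested probes.

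Below the control, EZR-AS1 had log2 levels of 6.56 in control cells, then 6.25, 6.09 and 5.90 with siRNAs 1, 2 and 3. Its log2 fold change was -0.48 ± 0.22 (SE). EZR, the gene of the membrane linker ezrin, stood at 0.08, -0.06 and -0.01. CD27-AS1 stood at 6.95 and at 6.74, 6.10 and 6.48, a log2 fold change of -0.51 ± 0.26 that was largest with siRNA 2. LDLRAD4-AS1 stood at 6.07 and at 5.58, 5.62 and 5.94, a log2 fold change of -0.36 ± 0.23. Its levels with siRNAs 1 and 2 lay at or near the dimmest detected signal of those arrays (5.58 on each). OIP5-AS1, known as the lncRNA Cyrano in fish, stood at -0.12 ± 0.20, beside -0.01 ± 0.22 for OIP5. Every one of these probes lay below the control on all 3 siEPEL arrays, and 0 passed the test.

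Of 64 lncRNA genes named after another gene, 43 had a partner gene with a tested probe, and 25 pairs were detected on all 4 arrays on both sides. In 14 of the 25 pairs the 2 genes had log2 fold changes of the same sign. Across these pairs Pearson's r between the 2 log2 ratios was 0.42 with siRNA 1, 0.23 with siRNA 2 and 0.06 with siRNA 3, and Spearman's rho was 0.58, 0.06 and 0.14. These are descriptions across genes: both ratios of a pair come from the same 2 arrays, and the 3 sets share the control array.

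**Figure D4:**
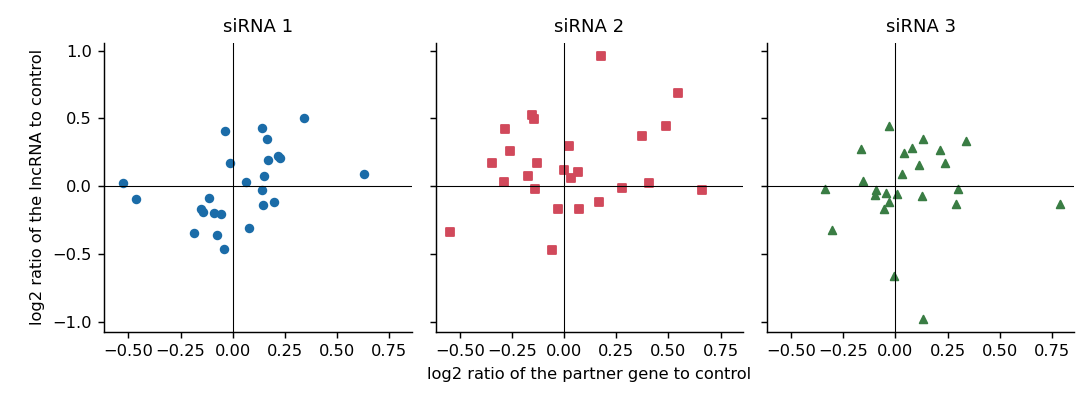
Log2 ratio to control of a lncRNA (y axis) against that of the gene it is named after (x axis), 1 point for each of 25 pairs detected on all 4 arrays, with siRNAs 1, 2 and 3 in separate panels. The points spread over all quadrants, with 14 of the 25 pairs sharing the sign of the log2 fold change.

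Among intergenic LINC genes, LINC00173 stood at 6.38 in control cells, then at 6.47, 7.04 and 7.04 with siRNAs 1, 2 and 3. Against control this was 1.06-fold, 1.58-fold and 1.57-fold. The log2 fold change was 0.47 ± 0.27 (SE), with siRNAs 2 and 3 high and siRNA 1 near the control. LINC02035 stood at 0.24 ± 0.21, LINC00938 at 0.20 ± 0.20 and LINC02693 at 0.19 ± 0.20, each above the control with all 3 siRNAs. On the low side LINC00997 stood at 7.12 and at 6.84, 6.68 and 6.41, a log2 fold change of -0.47 ± 0.23. LINC02203 stood at 6.12 and at 5.88, 5.83 and 5.67, a log2 fold change of -0.33 ± 0.21. Its level with siRNA 3 lay near the dimmest detected signal of that array (5.51). LINC00339 had 3 probes, of which one lay below the control on all 3 siEPEL arrays (-0.16 ± 0.20) and the other 2 gave 0.19 ± 0.21 and -0.04 ± 0.22. Of the 47 LINC probes, 13 lay above and 10 below the control with all 3 siRNAs (27.7% and 21.3%, against 21.6% and 19.9% of all tested probes).

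**Figure D5:**
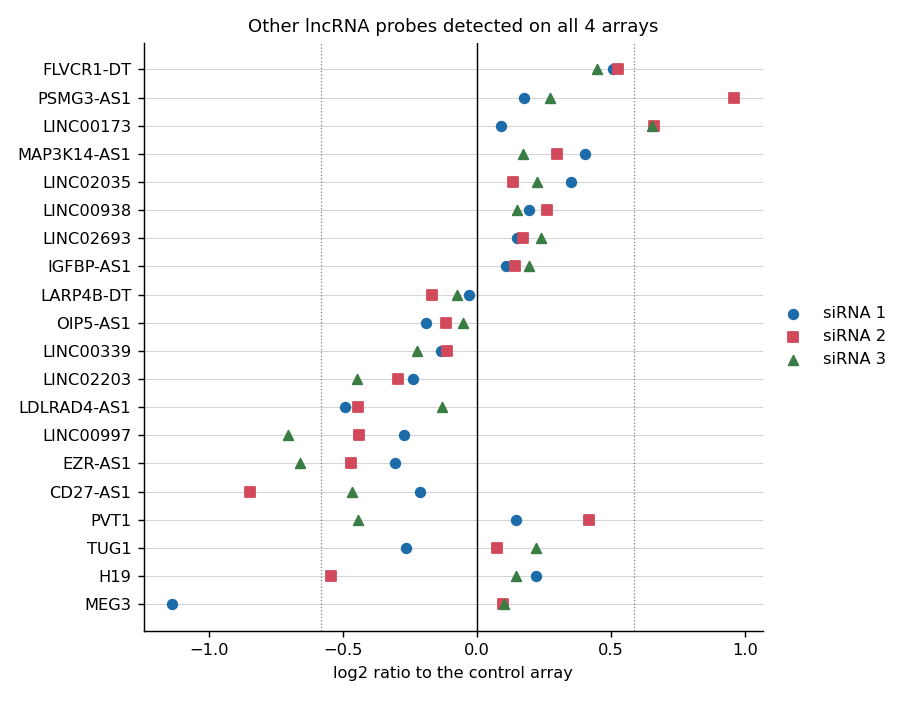
Log2 ratio to the control array (x axis) of 20 lncRNA probes detected on all 4 arrays (y axis): 8 above and 8 below the control with all 3 siRNAs, and PVT1, TUG1, H19 and MEG3, with 1 point for each siRNA. Dotted lines mark 1.5-fold. The 3 points of FLVCR1-DT lie together near 0.5, while MEG3 lies at -1.14 with siRNA 1 and near 0.1 with the others.

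Some lncRNAs lay near the detection limit, where a group without detection has only a bound. PGM5-AS1 was missing from the control array yet detected on all 3 siEPEL arrays, with measured log2 levels of 5.23 against 6.06, 6.02 and 5.71. Its bound was 1.24-fold higher in siEPEL cells. LINC01391 showed the same detection, with a bound of 1.19-fold higher. LINC00515 and HEXA-AS1 were each seen on a single siEPEL array (1 of 3) and had no bound above 1. A bound sets the mean of the detected group against a floor for the other group, on each array whichever is higher of the probe's own signal and the dimmest signal detected. It has no error term, so it is no tested minimum change. A probe with a bound passed the filter through 1 group, which sets the direction. On the low side LINC02209 and GPC1-AS1 were detected on the control array alone, with bounds of 1.26-fold and 1.16-fold lower. TENM3-AS1 and LINC00382 were detected in control cells and on 1 of the 3 siEPEL arrays, so their differences rest on signals of which 2 were not above background. TENM3-AS1, possibly the siRNA target itself, had log2 levels of 6.25 against 5.57, 5.08 and 5.51. Its fitted log2 fold change of -0.87 ± 0.25 (SE) was -0.44 without background correction and -0.54 with an offset of 50. LINC00382 had log2 levels of 6.28 against 5.55, 5.43 and 5.87, with a fitted -0.67 ± 0.24 that was -0.35 and -0.43 under the same settings. TENM3, named with the first of them, stood at 0.27, -0.47 and 0.24.

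Proteins that process, bind or destroy these RNAs gave no call either, with 0% of all tested probes called. Of 10 measured nonsense-mediated decay factors (14 listed), 0 passed the test in either direction, with a median log2 fold change of -0.03. The extremes were the exon junction protein gene CASC3 at -0.40 ± 0.28 (SE) and the helicase gene UPF1 at 0.17 ± 0.20. Of 8 core snoRNP proteins 0 passed in either direction, with a median of -0.02, from GAR1 at -0.26 ± 0.27 to SNU13 at 0.12 ± 0.26. Of 10 measured protein-coding snoRNA hosts (11 listed) 0 passed in either direction, with a median of -0.02, from EIF4A1 at -0.18 ± 0.20 to EEF2 at 0.12 ± 0.20. The 10 exosome and adaptor genes had a median of -0.04, from the nuclease gene EXOSC10 at -0.30 ± 0.20 to the helicase gene MTREX at 0.16 ± 0.20, and 0 passed in either direction.

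Paraspeckle proteins, which assemble on NEAT1, had a median log2 fold change of 0.11 over 7 measured genes (8 listed), with 0 past the test in either direction. PSPC1 was the highest at 0.29 ± 0.20 (SE) and SFPQ the lowest at -0.33 ± 0.26. Nuclear speckle proteins had a median of -0.13 over 7 genes, from SRRM1 at -0.23 ± 0.27 to SRRM2 at 0.08 ± 0.21, with 0 past the test. Regulators of messenger RNAs with pyrimidine starts had a median of 0.03 over 5 measured genes (6 listed), from RPS6KB1 at -0.10 ± 0.21 to MTOR at 0.14 ± 0.21, with 0 past the test. Of the 4 neighbours or imprinted partners listed, MYC was the one measured.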

How the data were processed

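RNA from 4 samples was measured on Illumina HumanHT-12 BeadChips. The intensities that the authors deposited are raw bead signals per probe, neither background-subtracted nor normalized, and per the file headers each comes beside its detection p-value. They were exported with BeadStudio per the submitters' processing notes, version not given. The processed intensities that the authors also deposited, which have the same maximum on all arrays, served as an alternative. Raw medians were 68.3, 67.1, 65.9 and 65.9 for the control and siRNAs 1, 2 and 3.

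Signals were processed with neqc steps of limma 3.58.1 in R 4.3.3 (normexp from the detection p-values, an offset of 16, quantile normalization, log2). The offset understates changes of dim probes. Probes detected on at least 1 array (18200) were fitted with lmFit and eBayes, 2-sided, adjusted over all probes by Benjamini-Hochberg at 0.05, with 2 residual and 6.83 prior degrees of freedom. The single control array is taken to vary as the siEPEL ones do. The test was tested on simulated data with independent normal noise. It recovered 100% of 4-fold and 69.1% of 2-fold changes, so 2-fold changes can go uncalled. These figures cover 18200 probes of all levels. Recovery for dim probes, such as most lncRNA probes here, was not tested.

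Genes were named through the platform annotation (30113 probes with 1 gene). Partner and list genes were taken by their brightest tested probe. Named were all snoRNA hosts, the genes named in the inclusion rule, and the members furthest to one side with all 3 siRNAs by the smallest of their ratios: 8 each way when detected on all 4 arrays, 4 each way otherwise. Their partners, the snoRNAs of the hosts and the extremes of each list were also named, as were probes at the detection threshold and genes with a motif match. SLC12A2-DT was chosen after its values were seen. The members and lists were chosen with earlier results of these data known. Files name no genome build. RefSeq placements of GRCh38.p14 were used for promoter sequences and for which snoRNA genes lie inside a host.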

Additional observations from a re-analysis of the deposited data

How the results depend on the processing

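The count of lncRNA probes past the test was 0 under each alternative run for it with limma, among them adjusted p under 0.10 and the intensity trend in the prior, while 1 (no background correction) to 22 (no detection filter, 592 probes) had an unadjusted p under 0.05. The median log2 fold change of the lncRNA probes, 0.04, was 0.0062 without a detection filter and ran from -0.00041 (without siRNA 2) to 0.068 when each siEPEL array was left out in turn. With every siRNA, 1 probe (TENM3-AS1) lay 1.5-fold or more away from control cells. That count was 0 without background correction, 0 with an offset of 50, 0 among probes detected on all 4 arrays, 2 without a detection filter, 10 at the smaller fold threshold tried and 0 at 2-fold, and it ran from 1 to 4 when an array was left out, where fewer arrays had to share a side. With siRNAs 1, 2 and 3 alone, 8, 17 and 10 probes were at least 1.5-fold from the control. The counts were 1, 0 and 1 without background correction, 1, 5 and 1 with an offset of 50, 1, 7 and 6 where all 4 arrays had to detect the probe, 47, 48 and 49 at the smaller threshold, and 1, 2 and 0 at 2-fold. Without a detection filter siRNA 1 gave 14. A larger offset or no background correction draws the ratios of dim probes towards 0 by construction.

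Of 603 values of 47 named probes under alternatives, 583 kept their direction and 20 reversed. Median scaling gave SNHG6 -0.037 and TUG1 -0.050, and cyclic loess gave TUG1 -0.0085. The mean of a gene's probes gave SNHG15 0.033 and SNHG7 0.095. With an array left out, the log2 fold change ran from -0.0054 to 0.22 for SNHG10, from -0.098 to 0.027 for SNHG11, from -0.092 to 0.035 for SNHG17, from -0.28 to 0.074 for SNHG5 (ILMN_1653794), from -0.035 to 0.082 for SNHG6 and from -0.11 to 0.0030 for SNHG7 (ILMN_3227023). It ran from -0.20 to 0.18 for H19, from -0.52 to 0.10 for MEG3, from -0.15 to 0.28 for PVT1 and from -0.094 to 0.15 for TUG1. The cause was not tested. No paired analysis was possible because the control group has 1 sample. Signals near the negative beads limit most LINC and antisense probes.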
